A study of Arabidopsis thaliana with 39 samples.

Results

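GLABRA2 (GL2, AT1G79840) was followed as 1 of the 806 genes of the deposited epidermis table, picked by its gene identifier and read in each of the 13 columns of values. The table holds RPKM, a read number per length of gene and per total of reads. Here the values are relative to the 806 genes, since RPKM times exon length summed to nearly the same total in every group. They come from protoplasts of Arabidopsis thaliana roots sorted by the fluorescence of a pWER::GFP line in the Col-0 accession. In that line the WEREWOLF promoter drives green fluorescent protein as an epidermis marker. Seedlings grew on +Fe medium until day 7 and were then moved to -Fe medium, which carried 300 μM of the iron chelator ferrozine and by the labels no FeEDTA, or to fresh +Fe medium with 0.1 mM FeEDTA. The groups were -Fe at 6, 12, 18, 24, 30 and 36 h, +Fe at the same 6 times, and +Fe at 0 h as the common start. Each group was made from 3 libraries, 39 in all, but the table gives 1 value per gene and group. No SD, test or p-value can therefore be given for any value or difference below, and the depth behind them is unknown.

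GL2 encodes a homeodomain transcription factor of the HD-ZIP IV family. The root epidermis consists of files of hair cells and files of non-hair cells, and GL2 is known as the factor that keeps non-hair cells from forming a hair. In non-hair cells it is switched on by a complex of the MYB protein WEREWOLF, the bHLH proteins GL3 and EGL3 and the WD40 protein TTG1, whereas the small MYB proteins CPC and TRY block that complex in hair cells. Iron shortage is known to alter root hair growth, and the epidermis is where iron is taken up. In sorted cells, fewer non-hair cells and less GL2 RNA per cell cannot be told apart.

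In the TAIR10.1 annotation of RefSeq, GL2 lies on the plus strand of chromosome 1 at chr1:30036956-30041440. The gene spans 4485 bases and has 6 annotated transcripts with up to 10 exons, which together cover 3204 exon bases. Of these, 155 bases are shared with AT1G09927 on the same strand. AT1G09927 was not analysed here, and reads in that stretch could belong to either gene. The use of strand in counting is not given in the sources used here. No stretch of at least 125 bases at 97% identity or more was found elsewhere in the genome for GL2. The table holds 3 other genes of the epidermal fate pathway and of the HD-ZIP IV family, HDG7 (AT5G52170), TTG2 (AT2G37260) and GL3 (AT5G41315).

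These 4 genes were taken as members of the fate pathway or the HD-ZIP IV family. They had the same time pattern of differences, which 66 of the 806 genes had (8.19%). The 250 bases before the outermost annotated start of each gene are shown 5′ to 3′ from the TAIR10.1 genome. They lie at chr1:30036706-30036955 for GL2, chr5:21196352-21196601 for HDG7, chr2:15644561-15644810 for TTG2 and chr5:16528840-16529089 for GL3, all on the plus strand. Capitals mark the MYB core CNGTT on either strand, the letters at the centre of sites that R2R3 MYB proteins are known to bind.
GL2: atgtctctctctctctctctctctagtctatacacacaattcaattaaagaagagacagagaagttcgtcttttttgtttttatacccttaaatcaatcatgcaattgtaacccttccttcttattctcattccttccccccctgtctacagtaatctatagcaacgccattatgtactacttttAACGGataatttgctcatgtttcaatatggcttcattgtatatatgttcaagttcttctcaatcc
HDG7: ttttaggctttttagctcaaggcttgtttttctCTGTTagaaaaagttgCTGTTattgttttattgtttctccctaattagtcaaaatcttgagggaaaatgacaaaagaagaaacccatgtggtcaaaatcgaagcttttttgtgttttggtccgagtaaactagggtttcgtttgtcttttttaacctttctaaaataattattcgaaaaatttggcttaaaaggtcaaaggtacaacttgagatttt
TTG2: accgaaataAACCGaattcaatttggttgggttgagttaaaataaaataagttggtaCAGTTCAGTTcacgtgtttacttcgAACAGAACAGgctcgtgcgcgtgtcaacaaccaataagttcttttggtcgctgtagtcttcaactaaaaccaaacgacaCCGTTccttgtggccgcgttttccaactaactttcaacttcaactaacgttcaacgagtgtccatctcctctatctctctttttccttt
GL3: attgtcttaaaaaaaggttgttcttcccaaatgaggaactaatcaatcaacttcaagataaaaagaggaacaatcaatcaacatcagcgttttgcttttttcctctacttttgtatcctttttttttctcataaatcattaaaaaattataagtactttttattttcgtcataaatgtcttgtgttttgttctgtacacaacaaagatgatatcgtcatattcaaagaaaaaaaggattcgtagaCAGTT
The GL2 window had 1 match to the MYB core, AACGG at 65 to 61 bases before the start. Other annotated GL2 transcripts start further downstream, at chr1:30037376, chr1:30037431 and chr1:30037640. The bases just before those starts were not searched. HDG7 had 2 matches, TTG2 had 6 and GL3 had 1, which ended at the last base before the start. Such a match is common, since 70.2% of 27443 promoters of protein-coding genes and 68.6% of the 802 promoters of protein-coding genes in the table held at least 1. Each of the 4 windows also held 1 match to the E box CANNTG, the letters read by bHLH proteins, which occurred in 55.3% of all promoters, and in the 4 windows no E box overlapped a MYB core. The L1 box, TAAATGTA or TAAATGCA on either strand, which HD-ZIP IV proteins are known to bind, was in none of the 4 windows and in 4.49% of all promoters.

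GL2 was listed at 168, 188, 173, 121, 98.1 and 113 RPKM on -Fe medium from 6 to 36 h. On +Fe medium it was listed at 404, 409.8, 187, 378, 248 and 154 RPKM over the same times, against 189 RPKM at 0 h. The -Fe values never exceeded the starting value, whereas the +Fe values lay above it at 4 of the 6 times. Ordered by level, the top 4 groups were all +Fe groups, in the order 12, 6, 24 and 30 h, and the lowest 3 were all -Fe groups, in the order 24, 36 and 30 h. Between them lay 0 h, -Fe at 6, 12 and 18 h, and +Fe at 18 and 36 h, all between 154 and 189 RPKM. The largest steps in this order were 1.53-fold between +Fe 24 h and +Fe 30 h, 1.31-fold between +Fe 30 h and 0 h, and 1.28-fold between +Fe 36 h and -Fe 24 h, and the other neighbours were 1.01- to 1.15-fold apart. With no spread between libraries, it cannot be said which neighbours differ. The highest level was 4.18-fold the lowest, and by its mean GL2 stood above 48.9% of the genes in the table.

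**Figure D1:**
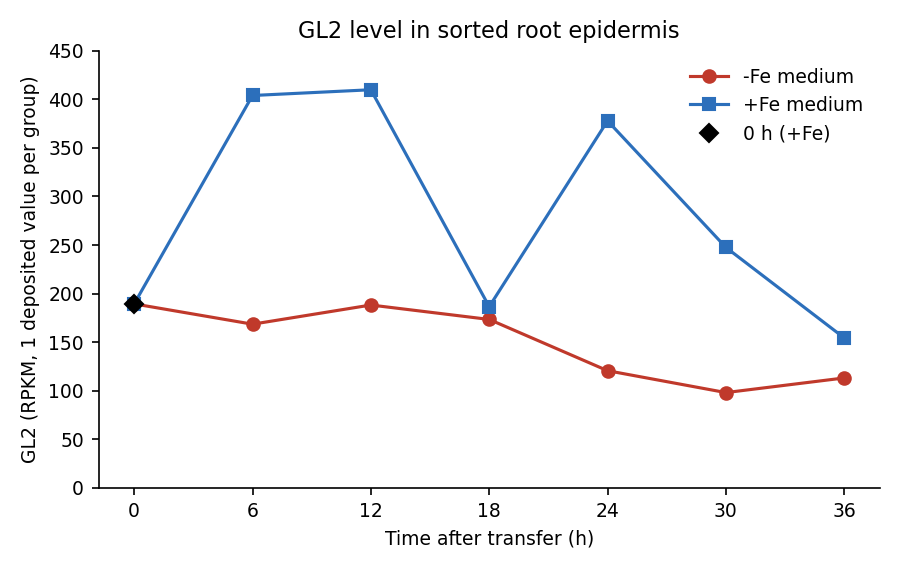
GL2 level in RPKM (vertical axis, from 0) against hours after transfer, 1 deposited value per group and no error bars, with -Fe in red, +Fe in blue and the shared 0 h value as a diamond. The -Fe line stays at or below 189 RPKM throughout, and the +Fe line is at about the starting value at 18 h between peaks of 409.8 RPKM at 12 h and 378 RPKM at 24 h.

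Compared with the +Fe group of the same time, GL2 was lower on -Fe medium at each of the 6 times. On the scale of log2(RPKM + 1), the difference was largest at 24 h, with -1.64, followed by -1.33 at 30 h, and at 6 and 12 h it was -1.26 and -1.12. At 24 h the +Fe level was 3.12-fold the -Fe level. At 36 h the difference was -0.44 and at 18 h it was -0.10, so that the size threshold of 0.75 which the study used was passed at 4 of 6 times. Lower values on -Fe medium were common in the table, which was deposited as one of differentially expressed genes. In this direction 30.1% of the 806 genes were called at 24 h, the highest share, and 23.3%, 23.6%, 11.4%, 26.2% and 13.8% did so at 6, 12, 18, 30 and 36 h. A ratio below 0 at all 6 times, as GL2 had, was found in 176 genes or 21.8%. The split depended on the scale in places. As deposited 75 genes were higher and 243 lower at 24 h, against 121 and 227 when each group was centred on its median, and at 6 h the 74 higher and 188 lower genes became 46 and 212 with size factors. GL2 was then at -1.44 and -1.39. With the +Fe groups averaged over time as control, GL2 no longer passed the threshold at 6 h (-0.74) or 12 h (-0.58) and passed it at 36 h (-1.31). Genes with a ratio still lower than that of GL2 made up 10.5%, 15.0%, 12.5% and 18.4% of the table at 6, 12, 24 and 30 h. GL2 thus lay in the lower part of the distribution at these times without being among its extremes. A fall past the threshold at 4 or more of the 6 times was shared by 181 genes, 22.5% of the table. The pattern of GL2, lower at 6, 12, 24 and 30 h and at neither 18 nor 36 h, was shared by 66 genes including GL2 itself, or 8.19%. The median ratio of all genes was 0.15 at 6 h, 0.07 at 12 h and within 0.03 of 0 at the later times, so the ratio of GL2 relative to the median gene differed most from the ratio itself at 6 h.

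**Figure D2:**
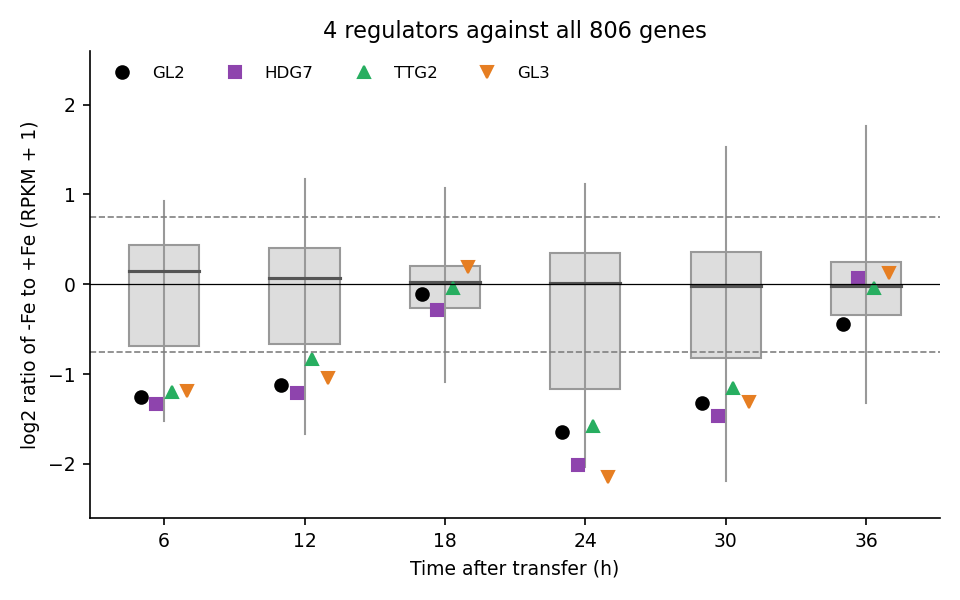
Log2 ratio of -Fe to +Fe (RPKM + 1, vertical axis) at each time after transfer for GL2, HDG7, TTG2 and GL3, over all 806 genes (box, 25th to 75th percentile with the median; line, 5th to 95th percentile; dashed lines, ±0.75). All 4 genes lie under the lower dashed line at 6, 12, 24 and 30 h, and none does at 18 or 36 h.

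The change from 0 h shows on which medium the level of GL2 moved. On -Fe medium the log2 change from 0 h was -0.17, -0.01 and -0.13 at 6, 12 and 18 h, then -0.65, -0.94 and -0.74 at 24, 30 and 36 h. It passed the threshold downwards only at 30 h, where 17.7% of genes did so, beside 7.07%, 6.08%, 10.3%, 12.2% and 12.7% at 6, 12, 18, 24 and 36 h. Centred on group medians, the change at 30 h was -0.67 and no longer passed, and the 48 higher and 143 lower genes of the table at that time became 86 and 79. On +Fe medium the log2 change from 0 h was 1.09, 1.11 and -0.02 at 6, 12 and 18 h, then 0.99, 0.38 and -0.29 at 24, 30 and 36 h. Here GL2 passed the threshold upwards at 6, 12 and 24 h, as did 28.2%, 26.3% and 25.2% of the genes at these times, beside 16%, 17.6% and 5.58% at 18, 30 and 36 h. At 6 and 12 h the difference between the media was therefore a higher level on +Fe medium beside a level on -Fe medium close to the start. At 24 h both media had moved away from the start, in opposite directions, with only the +Fe change past the threshold. At 30 h the larger part of the ratio lay on -Fe medium, and at 36 h both values lay under that of 0 h. Transfer itself, time and handling are shared by both media, and their part in the +Fe values was not tested. The calls of GL2 against +Fe, together with a +Fe level past the threshold above 0 h at 6, 12 and 24 h and a -Fe level within the threshold of 0 h up to 24 h, were met by 34 genes, 4.22% of the table.

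**Figure D3:**
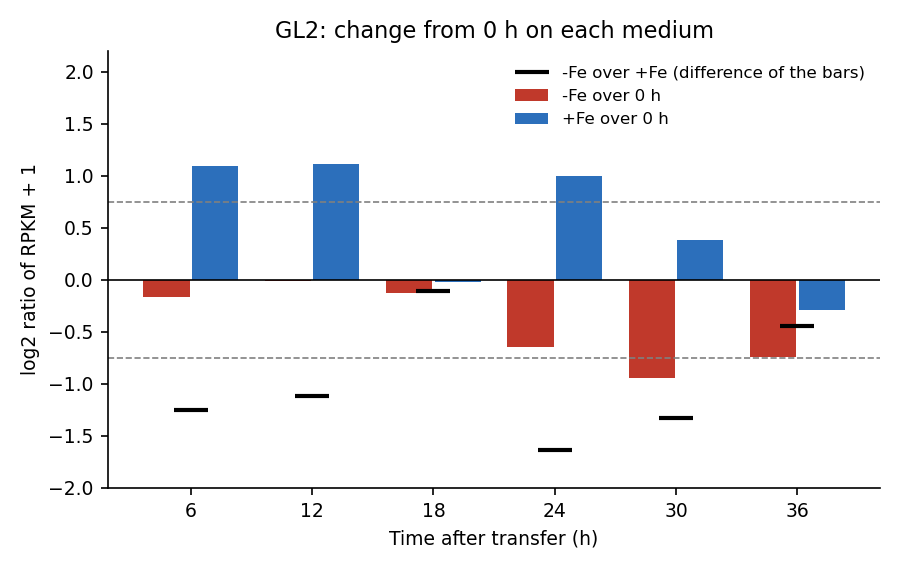
Log2 change of GL2 from 0 h (RPKM + 1, vertical axis) on -Fe (red bars) and +Fe (blue bars) at each time after transfer, with the -Fe to +Fe ratio, which is the difference of the bars, as a black dash and ±0.75 as dashed lines. The +Fe bars reach 1.09, 1.11 and 0.99 at 6, 12 and 24 h, whereas among the -Fe bars only that at 30 h (-0.94) passes the threshold.

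The small difference at 18 h came with a low value on +Fe medium. From 12 to 18 h GL2 on +Fe medium changed by -1.13 on the log2 scale, a larger drop than in 94.9% of the genes, and from 18 to 24 h by 1.01, a larger gain than in 98.3% of them. The steps that followed were -0.61 to 30 h and -0.68 to 36 h. On -Fe medium no step between neighbouring times was larger than 0.52 in size, that from 18 to 24 h, which was downward. Genes that dropped past the threshold from 12 to 18 h and gained past it from 18 to 24 h numbered 39 on +Fe medium, 4.84% of the table, and 7 on -Fe medium, 0.868%. GL2, HDG7, TTG2 and GL3 were all among the 39 and none was among the 7. The 18 h value on +Fe medium is a single deposited number, and whether its 3 libraries were alike was not tested. Seedlings were kept in a daily cycle of light and dark, and samples 24 h apart share the hour of the day. In such pairs, GL2 on -Fe medium was at -0.65 (24 h against 0 h), -0.77 (30 h against 6 h) and -0.73 (36 h against 12 h) on the log2 scale. On +Fe medium the same pairs gave 0.99, -0.70 and -1.40. At a matched hour the later -Fe level was thus the lower one in all 3 pairs, and on +Fe medium in the 2 pairs that do not start at 0 h.

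HDG7, another HD-ZIP IV protein and so a relative of GL2, was listed at 67.8, 68.5, 70.7, 36.9, 37.8 and 57.5 RPKM on -Fe medium from 6 to 36 h. On +Fe medium it was listed at 172, 159.7, 86.6, 152, 106 and 54.9 RPKM, against 54.5 RPKM at 0 h. Its log2 ratio of -Fe to +Fe was lowest at 24 h (-2.01), was -1.33, -1.21 and -1.47 at 6, 12 and 30 h, and was -0.29 at 18 h and 0.07 at 36 h. Its values are less certain than those of GL2, because its exons cover 1571 bases of AT5G52180, 913 of AT5G52190 and 116 of AT5G52200 on the opposite strand.

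TTG2, a WRKY factor that is known to act in the same fate pathway as GL2, was listed at 74.8, 90.5, 89.7, 54.7, 45.4 and 81.4 RPKM on -Fe medium. On +Fe medium it was listed at 172, 161, 92.5, 165, 103 and 83.9 RPKM, against 65.7 RPKM at 0 h. The log2 ratios at 6, 12, 24 and 30 h were -1.19, -0.83, -1.58 and -1.16, and those at 18 and 36 h were both -0.04.

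GL3 is the bHLH partner in the complex that switches GL2 on, and is known to be transcribed mainly in hair cells, with its protein moving to non-hair cells. It was the lowest of the 4 genes, at 18.8, 24.6, 32.6, 13.7, 15.5 and 22.6 RPKM on -Fe medium. On +Fe medium it was listed at 44.0, 51.6, 28.5, 64.2, 39.8 and 20.6 RPKM, against 19.9 RPKM at 0 h. Its ratio at 24 h, -2.14, was the largest difference among the 4 genes, and the others were -1.18, -1.04, 0.19, -1.31 and 0.12 at 6, 12, 18, 30 and 36 h. Of its exon bases, 36 are shared with AT5G06145 on the opposite strand.

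All 4 regulators were lower on -Fe medium past the threshold at 6, 12, 24 and 30 h and at no other time, except that TTG2 at 12 h was at -0.73 when values were rescaled without the 10 highest genes. With the averaged +Fe control the calls of HDG7, TTG2 and GL3 also ended at 12 h (-0.71, -0.41 and -0.62), and those of HDG7 and TTG2 at 6 h (-0.72 and -0.68). HDG7 then passed the threshold at 36 h (-0.95), and the positive ratios of GL3 at 18 and 36 h turned to -0.23 and -0.74. On +Fe medium their changes from 0 h were between 1.09 and 1.64 at 6 h, between 1.11 and 1.53 at 12 h and between 0.99 and 1.64 at 24 h, with GL2 the lowest of the 4 at each of these times. They parted on -Fe medium late in the course. At 36 h HDG7, TTG2 and GL3 were between 0.08 and 0.31 above their 0 h level, whereas GL2 was at -0.74, the lowest of the 4. As deposited, GL2 was also the only one past the threshold from 0 h on -Fe medium at any time, at 30 h. That call was lost (-0.67) when groups were centred on their medians. The same centring raised all -Fe changes at 18 h alike, that of GL2 from -0.13 to -0.04. It took GL3 at 18 h, at 0.68 as deposited, past the threshold upwards. These single values carry no error, so the late difference between GL2 and the other 3 genes was not tested.

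**Figure D4:**
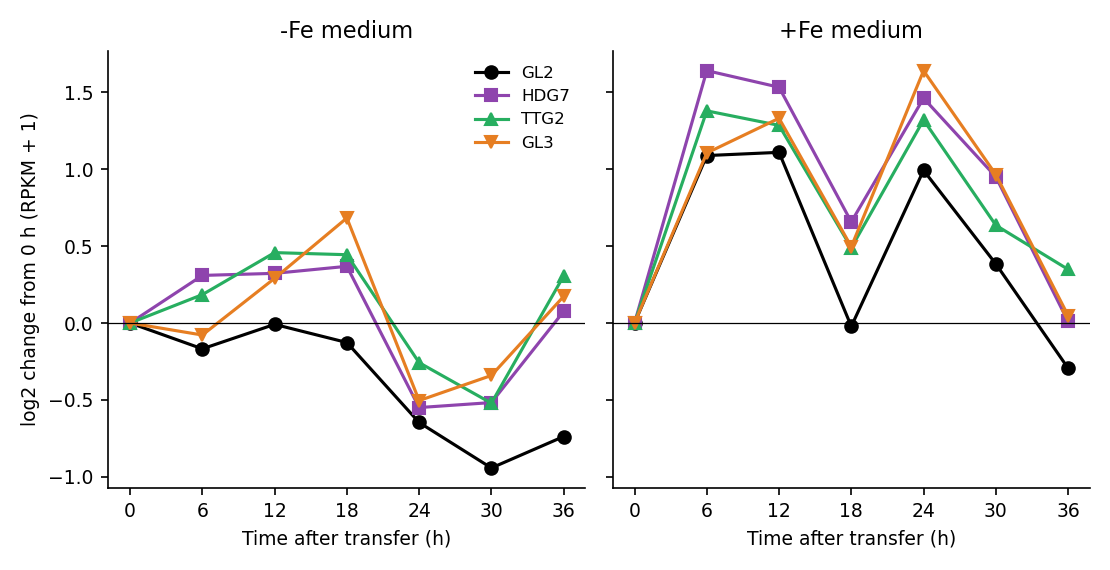
Log2 change from 0 h (RPKM + 1, vertical axis) of GL2, HDG7, TTG2 and GL3 against hours after transfer, on -Fe medium (left) and +Fe medium (right), 1 value per group. All 4 lines dip at 18 h on the +Fe side, and on the -Fe side the other 3 genes end above 0 at 36 h while GL2 ends at -0.74.

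Few other genes of the fate pathway were among the 806. Of a list of 14 patterning genes beside GL2, only GL3 and TTG2 could be read, and of 16 HD-ZIP IV genes only GL2 and HDG7. WER, the source of the sort marker, was not analysed here, nor was any of 7 root hair regulators, of 4 genes known as GL2 targets or of 27 genes of hair outgrowth. Outside these lists, and looked up after the values were seen, the table holds GRF11, which it also names RHS5 for a root hair specific gene, and ZFP5, a zinc finger factor known to promote hair initiation. Over the 13 groups their Pearson correlations with GL2 were -0.66 and 0.17. The labelled cell type could be checked only in part for the same reason. None of the markers of cortex (2), endodermis (5) or stele (6) was analysed here, and among 3 root cap markers BRN1 alone was, at 1470.4 to 2057 RPKM on -Fe medium and 1384 to 1972 RPKM on +Fe medium after 0 h, where it was at 1601 RPKM. Its log2 ratio of -Fe to +Fe stayed between -0.08 and 0.14. WER is known to be active in the lateral root cap too, so that a WER-driven sort can hold root cap cells, and their part in the GL2 values was not tested.

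Genes of iron uptake and its regulators that passed the threshold did so in the direction opposite to GL2. Of 7 read out of a list of 9, the number higher on -Fe medium past the threshold was 3 at first (6 h), 4 at 12, 18 and 24 h, and 5 at 30 and 36 h, and 0 were lower. Of all 806 genes, 9.18%, 10.8%, 6.82%, 9.31%, 11.3% and 9.8% were higher at the 6 times in turn. The median log2 ratio of the 7 was 0.69 at 6 h and 3.53 at 36 h, whereas the ratio of GL2 was nearest to 0 at 18 and 36 h. IRT1, the main iron importer of the root surface, was at 432 to 3237 RPKM on -Fe medium and at 16.8 to 155 RPKM on +Fe medium after 0 h. BHLH38, BHLH39 and BHLH101, bHLH factors of the iron response, had ratios of 2.17 to 7.46, 0.69 to 5.09 and 0.78 to 3.53. The highest ratio of BHLH38 rests on a +Fe value listed at 0. FRO2, the root ferric reductase, passed the threshold at 30 h (0.81) and 36 h (1.26). FIT, the bHLH regulator of iron uptake, had ratios of -0.08 to 0.41 and passed it at no time. BTS, an E3 ligase that restrains the response, had ratios of -0.21 to 0.7496, and its 30 h value lay so close under the threshold that the quotient of the RPKM without a pseudocount, 1.69, was past it. Across the 13 groups all 7 had a negative Pearson correlation with GL2, between -0.76 (FRO2) and -0.52 (FIT). These 13 points share their scale and their time course, and n is 13 groups, not independent samples. The sign depended on the values compared. Over the 6 ratios of -Fe to +Fe all 7 correlations with GL2 were positive, between 0.099 (FRO2) and 0.41 (BTS). Iron genes outside this list, named after their values were seen, had correlations of both signs with GL2 over the 13 groups. Positive ones were 0.81 for the metal transporter IRT3 and 0.71, 0.65 and 0.48 for the iron storage ferritins FER3, FER4 and FER1. Negative ones were -0.68 for IRT2, -0.65 for FRO4, -0.62 for the iron transporter OPT3 and -0.60 for FRO3.

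The likeness of each other gene to GL2 was described by the Pearson correlation of log2(RPKM + 1) over the same 13 groups. Its spread over the 805 genes had a crowd at each end, with 192 genes at 0.8 or above, 46 at -0.8 or below and a median of -0.16. The 8 genes most like GL2 were DTX1 (0.981), AT5G62280 (0.975), ESC (0.967), AT3G42806 (0.964), DIN4 (0.961), AT1G72820 (0.958), NACA2 (0.957) and HDG7 (0.955). TTG2 stood at rank 32 with 0.930 and GL3 at rank 70 with 0.898. These ranks depend on the values compared, since over the 6 ratios of -Fe to +Fe TTG2 was at rank 6 (0.976), GL3 at rank 7 (0.975) and HDG7 at rank 24 (0.944). Over the -Fe groups and 0 h alone the correlations were 0.66 for TTG2, 0.57 for GL3 and 0.76 for HDG7. A value of 0.9 or above was reached by 67 genes, so the ranks within this set differ by little. The first principal component of the table, which held 68.0% of the variance and to which GL2 itself contributes, had a correlation of 0.926 with GL2. The course of GL2 was thus close to the main axis along which the genes of this table varied.

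**Figure D5:**
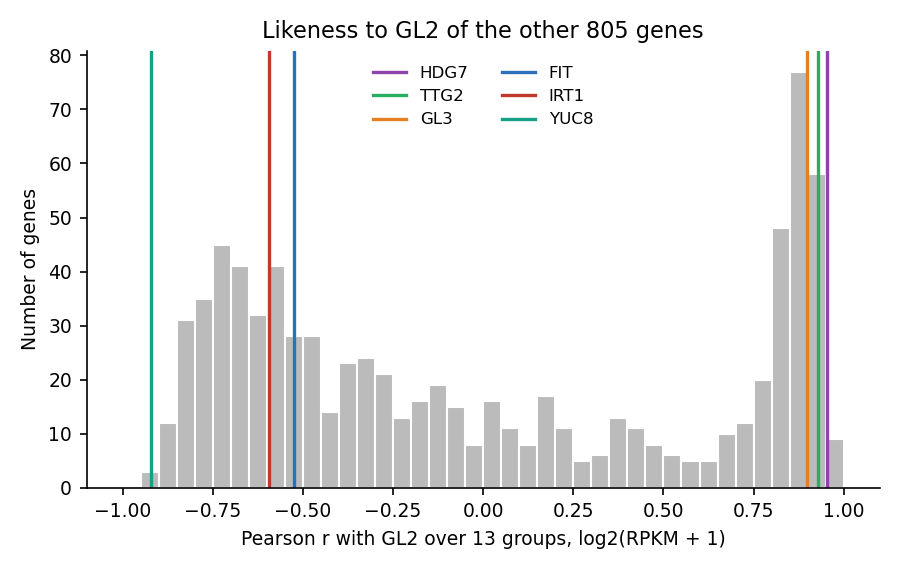
Number of genes (vertical axis) by Pearson correlation with GL2 over 13 groups (log2(RPKM + 1), bins of 0.05) for the other 805 genes, with vertical lines at HDG7, TTG2, GL3, FIT, IRT1 and YUC8. The 3 fate and HD-ZIP IV genes stand in the crowd near 0.9, the iron genes FIT and IRT1 at -0.52 and -0.59, and YUC8 at -0.92.

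DTX1, a MATE family efflux carrier, was closest to GL2 in its course at a far lower level. It was listed at 14.0, 12.7, 13.5, 6.25, 5.12 and 6.25 RPKM on -Fe medium and at 63.6, 40.9, 16.8, 42.8, 20.8 and 8.82 RPKM on +Fe medium, against 11.9 RPKM at 0 h. Its log2 ratio at 24 h, -2.59, was larger in size than that of GL2. It shares 283 exon bases with AT2G04039 on the opposite strand and has a stretch of 448 bases at 97.1% identity elsewhere, so its reads may be shared. ESC, an AT-hook DNA-binding protein, was at 33.9, 28.1, 26.6, 17.0, 16.4 and 21.9 RPKM on -Fe medium. On +Fe medium it was at 88.1, 80.8, 30.5, 60.3, 46.9 and 25.9 RPKM, against 25.7 RPKM at 0 h. All 8 genes had the same pattern of times past the threshold as GL2, which 8.19% of the table had, but they were chosen on the same values and nothing is read from it. Their mean ratios over the 6 times lay between -1.48 (DTX1) and -0.85 (AT5G62280), with GL2 at -0.98. DIN4, a subunit of the branched-chain keto acid dehydrogenase, averaged -1.21, NACA2, a subunit of the nascent polypeptide-associated complex, -1.08, and AT1G72820, a mitochondrial carrier family member, -1.07. AT3G42806, at 1.74 to 4.35 RPKM on -Fe medium, has stretches of 737 and 153 bases at 97.4% identity elsewhere and is less certain.

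The 5 genes least like GL2 were YUC8 (-0.920), GSTU25 (-0.909), CKX4 (-0.901), AT3G61930 (-0.895) and AT2G30550 (-0.889). YUC8, a flavin monooxygenase of auxin synthesis, was at 734, 926, 818, 984, 1124 and 1177 RPKM on -Fe medium. On +Fe medium it was at 362, 435, 545, 476, 561 and 764 RPKM, against 906 RPKM at 0 h, so that its +Fe values were all under the start. Its log2 ratio passed the threshold upwards at 6, 12, 24 and 30 h, the 4 times at which GL2 passed it downwards. CKX4, which degrades cytokinin, passed it upwards at 12 h (1.43), 24 h (1.15) and 30 h (1.65). GSTU25, a glutathione transferase listed at 32956 to 37530 RPKM on -Fe medium, had ratios between -0.0022 and 0.44 and passed it at no time.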

How the data were processed

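Sorted root epidermis was measured in 39 libraries, 13 groups of 3 by the sample labels. The deposited RPKM come from RSubread, which the authors ran after mapping with tophat2 to TAIR10, with fastQC and fastq-mcf used earlier for read quality and adapters. The sources differ on the cDNA kit (SMARTer or a directional poly(A) kit) and on FeEDTA in -Fe medium. RPKM times exon length summed to nearly the same total in every group (CV 0.325%), so each value is relative to the 806 genes. How libraries were combined and how many reads stand behind a value are not given in the sources used here. Genes, lists and comparisons were chosen with earlier results of these data known.

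Differences were taken between values of log2(RPKM + 1), which understates changes of low genes, with no filter and no test, and counted past 0.75, the size threshold of the study. The planned limma fit needs values per library and was not run. Named genes are GL2, list members in the table, and the 8 most and 5 least like GL2 by Pearson correlation. Positions, overlaps and promoters came from TAIR10.1 of RefSeq, used by gene identifier and not mixed with TAIR10 coordinates, and copies from blastn 2.17.0. Alternatives were pseudocounts of 0.1 and 10, 3 other scalings, a mean +Fe control, a threshold of 1, a minimum mean of 1 RPKM, and other measures and subsets for likeness. On simulated data 200 of 200 planted genes among 806 and 50 of 50 genes with the course of GL2 were recovered. The planted changes lay well past the threshold on flat genes with small noise, and the 50 were near copies of GL2. Full recovery was therefore built in. It checks the code only and says nothing of the error in the deposited values. Python 3.11.15, numpy 2.4.6, pandas 2.3.3 and matplotlib 3.10.9 were used.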

Additional observations from a re-analysis of the deposited data

How the results depend on the processing

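No paired analysis was possible because the values carry no replicate numbers, and for the same reason no replicate could be left out. Pseudocounts and scalings kept every ratio of GL2 between -Fe and +Fe on its side of the threshold, and TTG2 at 12 h alone among HDG7, TTG2 and GL3 lost a call under them (-0.73). The mean of all +Fe groups as control ended the call at 6 h (-0.74) and 12 h (-0.58) and made one at 36 h (-1.31), and turned HDG7 at 36 h to -0.95. The change of GL2 on -Fe medium at 12 h, near 0, became 0.057 when centred on group medians, 0.055 when divided by size factors and 0.082 without the 10 highest genes, and that at 30 h was -0.67 when centred. On +Fe medium at 18 h it became 0.0027 when centred and 0.051 without the 10 highest genes. A threshold of 1 left 94 genes of the table at 18 h, against 147. Of the 8 genes most like GL2, 2 stayed in the top 8 by Spearman correlation, 5 by Pearson correlation on RPKM, 5 without 6 h, 4 without 18 h and 5 without 24 h. Chosen after seeing the data, likeness over the 6 ratios kept 3, over -Fe groups and 0 h 1, and over +Fe groups and 0 h 1. Over -Fe groups and 0 h the median correlation of the 8 was 0.840. With 1 value per group and unknown depth, no difference has an error.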
